A study of Rattus norvegicus with 6 samples.

Results

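Zbtb16 and 4 other genes tied to glucocorticoid signalling, Fkbp5, Tsc22d3, Sgk1 and Nr3c1, were followed through rat lungs that had inhaled ultrafine nickel oxide (NiO), C60 fullerene or clean air. Members were every array probe whose gene name, in its current or an older form, was one of these 5 genes; Sgk1 is named Sgk on the array. That gave 10 probes of the 28677 probes kept for testing, and all 10 were kept. The set was picked by the measured level of Zbtb16 in NiO lungs at 1 month, so every Zbtb16 comparison that involves a 1-month group is given as a description, with no test.

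Male Wistar rats, 9 weeks old at the start, were exposed in a whole-body chamber for 6 hours a day on 5 days a week over 4 weeks. Right lungs, perfused with saline, were measured on 1-colour oligonucleotide arrays. The NiO lungs, the positive control of the study, were 4 at 3 days after exposure and 4 at 33 days, called 1 month here. The C60 lungs, which had received a cage-shaped carbon molecule as an aerosol, were 2 at 3 days and 4 at 1 month, and the clean-air control lungs were 3 at 3 days and 4 at 1 month.

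Glucocorticoids such as corticosterone, the main one in rats, bind a receptor that is held in the cytoplasm by heat shock proteins and their partners. The bound receptor, made from Nr3c1, moves to the nucleus and switches on genes that hold its binding sites, among them Fkbp5, Tsc22d3, Sgk1, Per1 and, in many human and rodent cells, Zbtb16. The hormone follows a daily rhythm and rises with stress, and lung epithelium, macrophages and connective tissue cells all respond to it. Zbtb16 encodes a zinc finger transcription factor also known as PLZF, which is needed in innate lymphocytes as well.

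The sequences shown here are those of both Zbtb16 probes, whose results differ, and of 1 Fkbp5 and 1 Tsc22d3 probe called in C60 lungs at 3 days, and each has at least 1 reading frame without a stop. They are given as the array design holds them, with places from its rat build rn4, and all lie on the minus strand. The Zbtb16 probes lie 156.699 kb apart, at chr8:51934505-51934564 for the first and chr8:52091263-52091322 for the second. Capitals in the first mark 2 cysteine codons with 2 codons between them, the spacing of many zinc fingers, and the Fkbp5 and Tsc22d3 probes shown lie at chr20:6647361-6647420 and chrX:128337877-128337936.
Zbtb16 zinc finger probe: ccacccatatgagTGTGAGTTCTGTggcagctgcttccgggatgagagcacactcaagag
Zbtb16 5′ probe: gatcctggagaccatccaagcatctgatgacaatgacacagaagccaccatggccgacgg
Fkbp5 probe 3: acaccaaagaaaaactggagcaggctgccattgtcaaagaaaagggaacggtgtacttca
Tsc22d3 probe 2: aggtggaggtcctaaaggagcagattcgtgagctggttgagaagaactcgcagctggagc

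The other probes were probes 1 and 2 of Fkbp5 (chr20:6637600-6637659 and chr20:6638283-6638342), probe 1 of Tsc22d3 (chrX:128336564-128336623), the single Sgk1 probe (chr1:23501718-23501777) and probes 1 and 2 of Nr3c1 (chr18:32371565-32371626 and chr18:32371932-32371991). In the 250 bases before the annotated starts that RefSeq lists for Fkbp5, Tsc22d3, Sgk1 and Nr3c1 (assembly GRCr8), neither the palindromic receptor site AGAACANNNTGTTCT nor its 1-sided form AGAACA, which it contains, was found on either strand. Among 33469 rat promoters of the same length, 0.012 percent held the full site and 17.5 percent the shorter one, so these windows say nothing about binding elsewhere.

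Levels are log2 of the processed spot signal relative to the array's 75th percentile, so 0 is the signal of that percentile, and levels of different probes are not set against each other. Between 57.4 and 78.3 percent of spots on an array were well above background. C60 array 1 at 3 days had the highest negative-control signal, 142.69, and C60 array 2 had 64.4, against 24.3 to 40.8 on the other arrays. C60 arrays 3 and 4 at 3 days were left out, as the label counts only 2 lungs and, of all choices among the 4, arrays 1 and 2 matched the authors' deposited table best. NiO arrays 2 and 3 at 3 days had the lowest 75th percentile signals (398 and 362), and control arrays 3 and 4 at 1 month had more spots above background (78.3 and 77.1 percent) than the others of their group (71.3 and 73.6 percent). That 1 array is 1 lung was taken from the labels' counts of animals, and the p-values cover only the spread from array to array. Every slide held 1 group and each time had its own scan day, so that within a time the slide and the group cannot be told apart, and neither can scan day and time.

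The Zbtb16 zinc finger probe was lower on most particle arrays than on control arrays at 3 days, and higher on all particle arrays at 1 month. At 3 days its level was -2.43, -5.48, -4.66 and -3.90 on NiO arrays, -6.51 and -3.24 on C60 arrays, and -2.69, -2.17 and -1.66 on control arrays. NiO array 1 lay among the controls, and the other NiO arrays and both C60 arrays lay below them. The probe was well above background on 2 of 4 NiO, 1 of 2 C60 and 3 of 3 control arrays. The log2 fold was -1.94 for NiO (SE 0.76, limma adjusted p = 0.0781) and -2.70 for C60 (SE 0.90, adjusted p = 0.102), so neither passed the threshold of 0.05. Without NiO array 1 the NiO fold was -2.51 (limma adjusted p = 0.0139), with 1 of the 3 remaining NiO arrays well above background. C60 array 1 alone was not well above background, so without C60 array 2 no size can be given. Without C60 array 1 the C60 fold was -1.06 (limma adjusted p = 0.833). The unused C60 arrays 3 and 4 read -3.82 and -3.58, also below the controls, and with all 4 the fold was -2.12 (limma adjusted p = 0.0699).

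At 1 month the same Zbtb16 probe read -2.57, -1.68, -3.83 and -3.65 on NiO arrays and -2.98, -3.96, -3.19 and -2.84 on C60 arrays. Control arrays read -4.83, -6.45, -5.08 and -4.54, and 3 of them were well above background. No particle array overlapped the controls, and the log2 fold was 2.29 for NiO (SE 0.70, 4.89-fold) and 1.98 for C60 (SE 0.70, 3.95-fold). With normexp background correction, which adds an offset and so compresses dim signals, these became 0.80 and 0.72. In control lungs the level was 8.29-fold lower at 1 month than at 3 days (log2 fold -3.05, SE 0.76), and with normexp the log2 fold was -1.30. By group mean the order from high to low was control at 3 days (-2.17), NiO at 1 month (-2.93), C60 at 1 month (-3.24), NiO at 3 days (-4.12), C60 at 3 days (-4.87) and control at 1 month (-5.22), and the arrays of every neighbouring pair in this order overlapped.

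The Zbtb16 5′ probe read lower on most particle arrays than on control arrays at 3 days, and its groups overlapped at 1 month. It read -3.78, -6.39, -6.58 and -5.40 on NiO arrays, -6.42 and -4.91 on C60 arrays and -4.37, -3.89 and -3.46 on control arrays at 3 days. All 3 controls were well above background, against 1 of 4 NiO arrays and none of the C60 pair. No other group had every array well above background, so the probe was kept through these controls alone. Its 3-day folds and tests against them lean on that filter and are no support for the zinc finger probe. The NiO fold was -1.63 (SE 0.64, limma adjusted p = 0.0831), and without NiO array 1, the only NiO array well above background, no size can be given. For C60 the level was at least 1.44-fold lower, with an adjusted p of 0.236 in the limma fit. At 1 month the 5′ probe read -5.18, -4.02, -5.83 and -6.58 in NiO, -5.74, -6.20, -5.32 and -5.28 in C60 and -6.88, -5.78, -5.06 and -5.98 in control lungs. These groups overlapped, with log2 folds of 0.52 (SE 0.60) for NiO and 0.29 (SE 0.60) for C60, and 2, 2 and 1 of 4 arrays were well above background in NiO, C60 and control lungs. The Zbtb16 probes gave folds of different size at 1 month, a difference that was not tested, and a signal this close to background limits the 5′ probe.

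**Figure D1:**
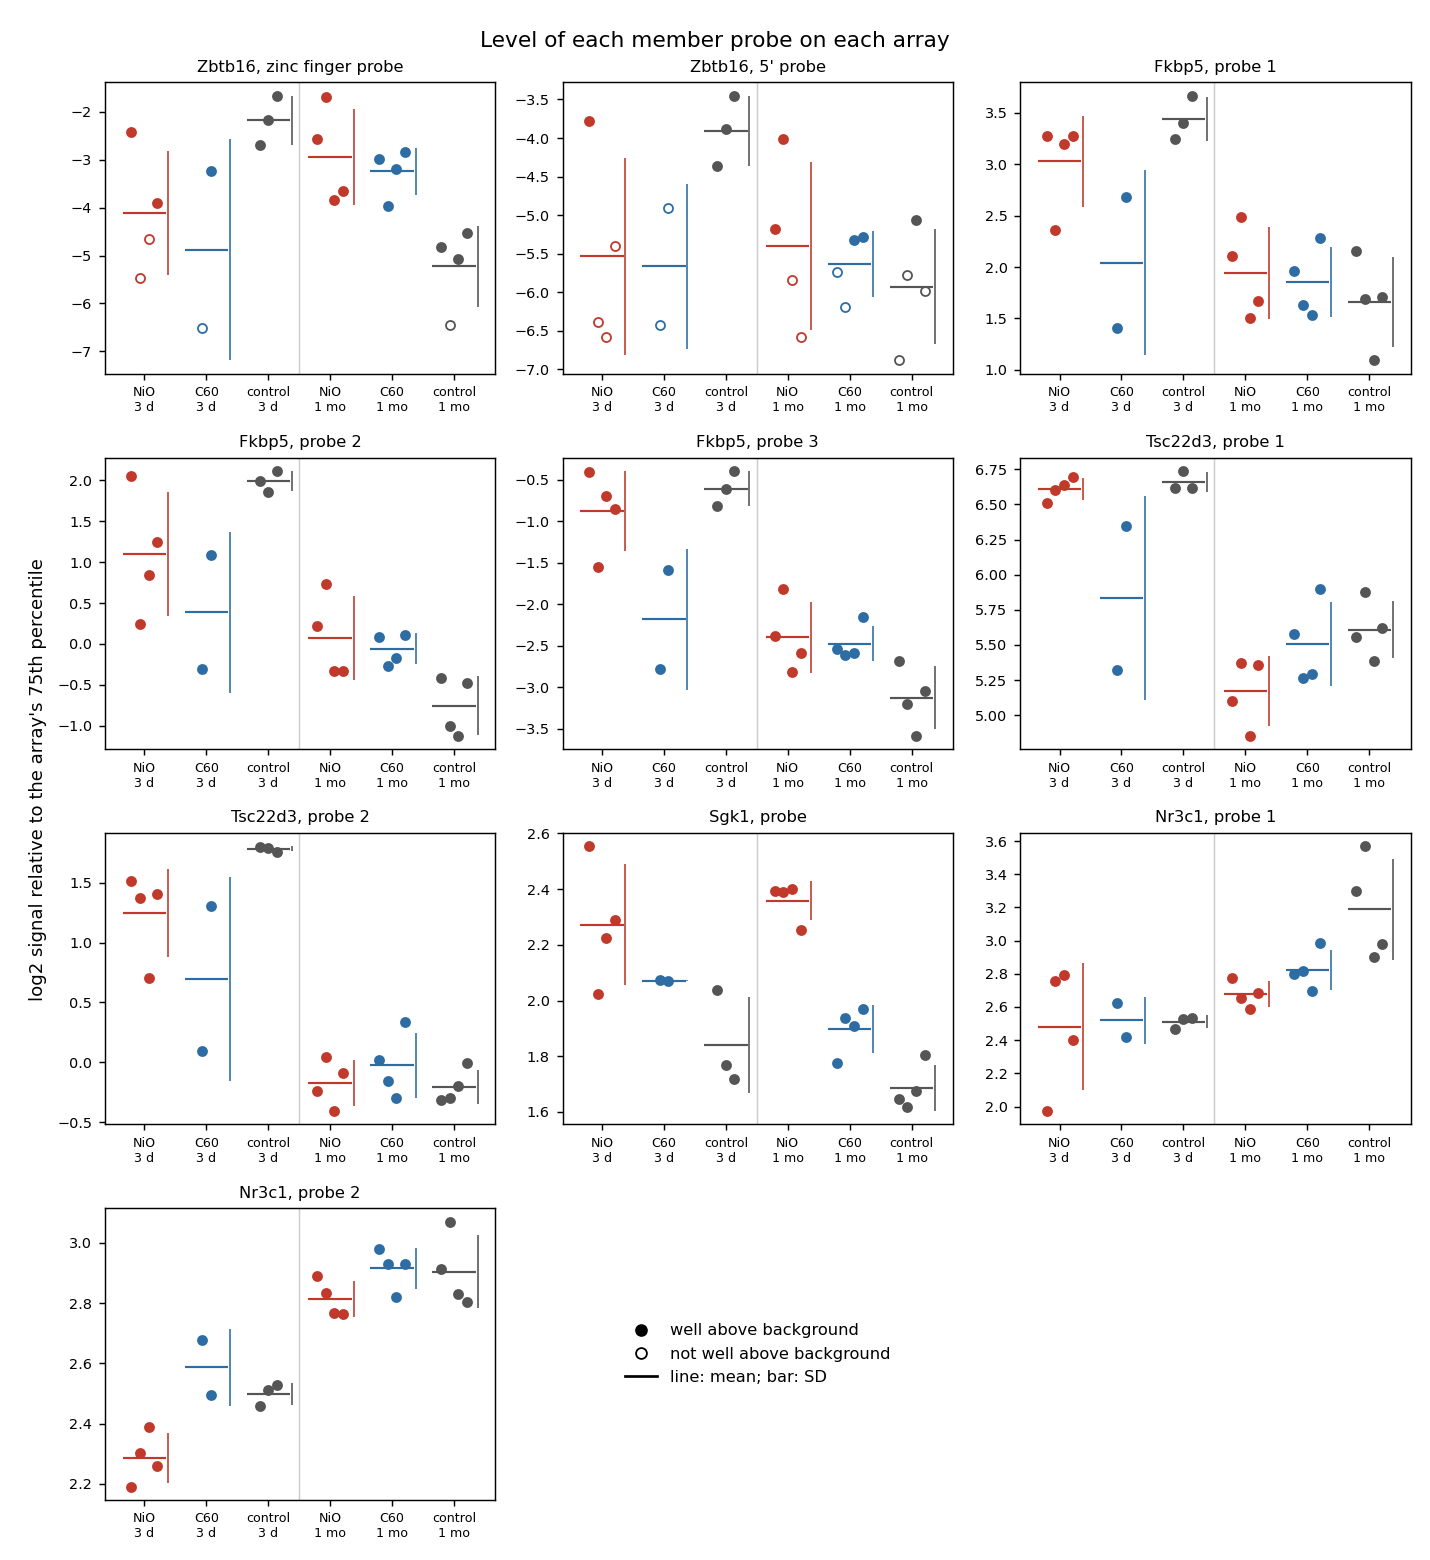
Log2 level (vertical axis, relative to the array's 75th percentile) of each of the 10 member probes on each used array, by group along the horizontal axis, with NiO, C60 and control at 3 days left of the grey line and at 1 month right of it. Points are arrays, open where not well above background, lines are group means and bars SD; Fkbp5 and Tsc22d3 are lower at 1 month in control lungs, and the Zbtb16 zinc finger probe has its lowest group mean, -5.22, in control lungs at 1 month.

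Fkbp5 encodes an immunophilin that joins the receptor complex and lowers hormone binding, and it is among the best known receptor targets. It fell in C60 lungs at 3 days on all 3 probes, and it was lower at 1 month than at 3 days in control lungs. On probe 3 the level at 3 days was -0.41, -1.55, -0.70 and -0.86 on NiO arrays, -2.78 and -1.59 on C60 arrays and -0.81, -0.62 and -0.40 on control arrays. Both C60 arrays lay below every control, while NiO arrays overlapped them. The C60 folds were -1.40 (SE 0.39, adjusted p = 0.0448), -1.60 (SE 0.44, adjusted p = 0.0454) and -1.57 (SE 0.36, adjusted p = 0.0157) on probes 1, 2 and 3 in the limma fit. Without C60 array 1 they were -0.76, -0.90 and -0.98 and none passed (limma adjusted p = 0.587, 0.572 and 0.335). Probes 1 and 2 also missed the threshold without any 1 of the 3 controls, and probe 3 without control 3 (limma adjusted p = 0.0566). With all 4 C60 arrays the folds were -1.27, -1.60 and -1.51, and each passed (limma adjusted p = 0.0122, 0.00538 and 0.00174).

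In NiO lungs at 3 days no Fkbp5 probe passed. Probe 2 read 2.05, 0.25, 0.84 and 1.25 on NiO arrays and 1.99, 1.86 and 2.11 on control arrays, a log2 fold of -0.89 (SE 0.37, limma adjusted p = 0.0977), which became -1.21 (0.0119) without NiO array 1. NiO array 1 again lay among the controls and the other 3 NiO arrays below them, as for Zbtb16. At 1 month this probe read 0.22, 0.73, -0.33 and -0.33 in NiO lungs, 0.09, -0.27, -0.17 and 0.12 in C60 lungs and -0.42, -1.0, -1.12 and -0.48 in control lungs. Neither particle group overlapped the controls, yet the folds of 0.83 for NiO (SE 0.34, limma adjusted p = 0.0742) and 0.69 for C60 (SE 0.34, limma adjusted p = 0.153) did not pass. Probe 3 gave 0.73 (limma adjusted p = 0.0572) and 0.65 (0.104), and probe 1 gave 0.28 (0.485) and 0.19 (0.665), for NiO and C60 in that order. The NiO fold of probe 3 passed without control 1 (0.87, limma adjusted p = 0.0379) or NiO array 3 (0.87, 0.0491), and after quantile normalization (1.05, 0.0211), where that for C60 passed too (0.95, 0.0426).

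Tsc22d3 encodes GILZ, a leucine zipper protein through which glucocorticoids restrain inflammatory signalling. It fell in C60 lungs at 3 days. Probe 2 read 1.51, 1.37, 0.70 and 1.40 on NiO arrays, 0.10 and 1.30 on C60 arrays and 1.80, 1.79 and 1.76 on control arrays. All particle arrays lay below the controls, whose spread was narrow (SD 0.022). The fold was -0.53 for NiO (SE 0.23, limma adjusted p = 0.115) and -1.08 for C60 (SE 0.28, limma adjusted p = 0.0317). Probe 1 gave -0.05 for NiO (limma adjusted p = 0.896) and -0.82 for C60 (0.0616), and its levels there were 5.32 and 6.35 on C60 arrays against 6.62, 6.74 and 6.62 on control arrays. Without C60 array 1 the C60 folds were -0.48 on probe 2 and -0.31 on probe 1 (limma adjusted p = 0.587 and 0.769), and the call on probe 2 was also lost without any 1 of the controls. With all 4 C60 arrays both probes passed, at -0.96 and -0.79 (limma adjusted p = 0.00924 and 0.0134).

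At 1 month Tsc22d3 probe 1 read 5.10, 5.37, 4.85 and 5.36 on NiO arrays and 5.56, 5.88, 5.38 and 5.62 on control arrays. The groups did not overlap, but the fold of -0.44 (SE 0.19) did not pass in the limma fit (adjusted p = 0.0832), and probe 2 gave 0.03. C60 and control lungs were not separated on either probe (-0.10 and 0.18, limma adjusted p = 0.712 and 0.564).

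Sgk1 encodes a kinase that keeps epithelial sodium channels at the cell surface, and it is induced by glucocorticoids, mineralocorticoids and cell stress. It rose in NiO lungs at both times. At 1 month it read 2.39, 2.39, 2.40 and 2.25 on NiO arrays, 1.78, 1.94, 1.91 and 1.97 on C60 arrays and 1.65, 1.62, 1.68 and 1.81 on control arrays. The NiO arrays stood clear of both other groups, while C60 and control arrays overlapped. The fold over control was 0.67 for NiO (SE 0.10, 1.59-fold, limma adjusted p = 0.000415) and 0.21 for C60 (SE 0.10, limma adjusted p = 0.146). At 3 days it read 2.55, 2.02, 2.22 and 2.29 in NiO, 2.07 and 2.07 in C60 and 2.04, 1.77 and 1.72 in control lungs. The lowest NiO array lay just under the highest control, so that these groups overlapped. The NiO fold of 0.43 (SE 0.11, limma adjusted p = 0.0143) missed the threshold without control 2 (0.0567) or control 3 (0.0721), and the C60 fold was 0.23 (limma adjusted p = 0.41). Sgk1 did not differ between the times in control lungs beyond the spread (-0.15, limma adjusted p = 0.264).

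Nr3c1, the receptor itself, was lower in NiO lungs at 1 month on 1 of its 2 probes. Probe 1 read 2.78, 2.65, 2.59 and 2.68 on NiO arrays, 2.80, 2.82, 2.70 and 2.99 on C60 arrays and 3.30, 3.57, 2.90 and 2.98 on control arrays. NiO arrays lay below all controls, with a fold of -0.51 (SE 0.16, limma adjusted p = 0.0256). That call was lost without control 1 (limma adjusted p = 0.0595), control 2 (0.0981), NiO array 2 (0.0571) or NiO array 3 (0.0648). Probe 2, 0.306 kb away, read 2.89, 2.83, 2.77 and 2.77 on NiO and 2.91, 3.07, 2.83 and 2.80 on control arrays, a fold of -0.09 (SE 0.08, limma adjusted p = 0.383). At 3 days probe 2 spanned 2.19 to 2.39 in NiO lungs and 2.46 to 2.53 in control lungs, which did not overlap, with a fold of -0.21 that did not pass (limma adjusted p = 0.0855). The C60 folds at 3 days were 0.01 and 0.09 on probes 1 and 2 (limma adjusted p = 0.992 and 0.76).

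Counted over the probes that were tested, 1 of 10 was called in NiO against control lungs at 3 days, against 18.6 percent of all probes, which is no more than the background. In C60 against control lungs at 3 days 4 of 10 were called, all lower, against 4.91 percent of all probes called either way and 2.18 percent called lower; 3 of the 4 measure the same gene, Fkbp5. At 1 month 2 of 8 were called for NiO (background 31.2 percent). For C60 at 1 month limma called none of 8 (background 20.3 percent), and 2 of 8 had an unadjusted p under 0.05, against 36.7 percent of all probes at that level. The median fold of all probes at 1 month was -0.12 for NiO and -0.08 for C60, and 0.03 and 0.05 after quantile normalization, so small folds at 1 month shift with the scaling.

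**Figure D2:**
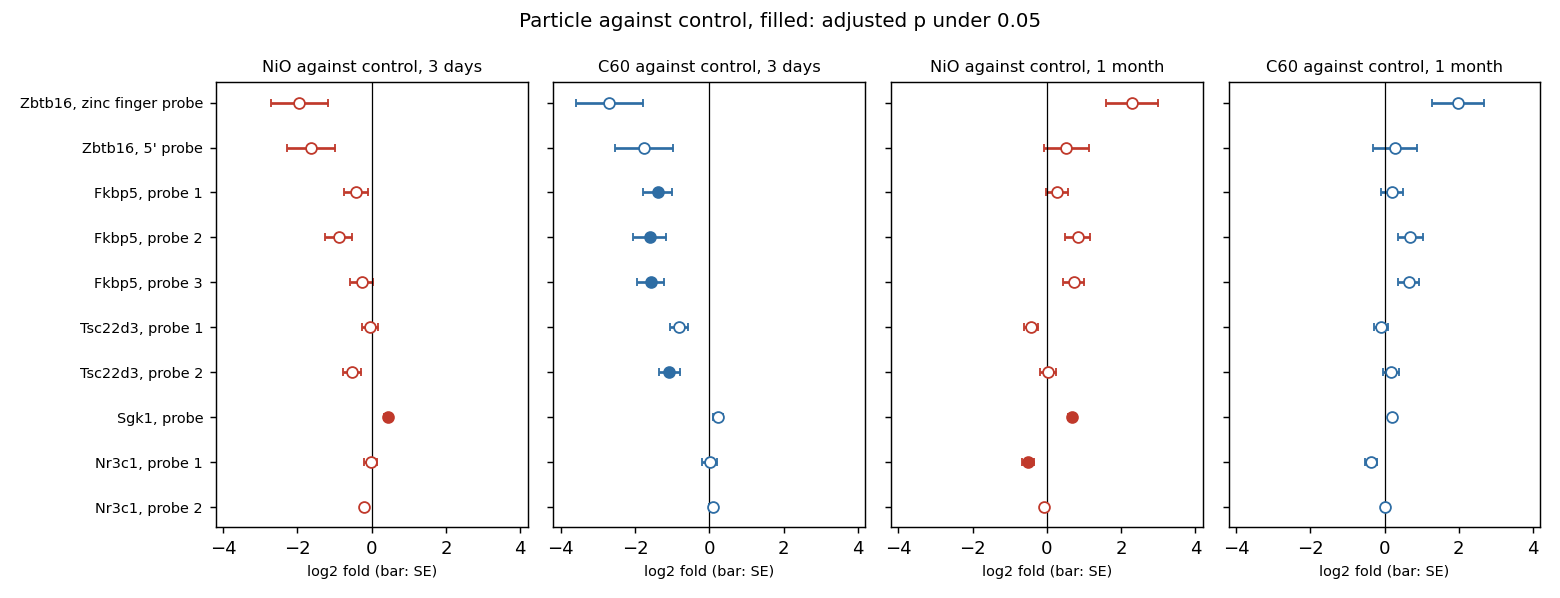
Log2 fold of each member probe (rows) for NiO or C60 over control at 3 days and at 1 month (panels), with SE bars. Filled points passed an adjusted p of 0.05 in the limma fit and open points did not or, for Zbtb16 at 1 month, were not tested; the filled points are Sgk1 for NiO at both times, Nr3c1 probe 1 for NiO at 1 month, and Fkbp5 and Tsc22d3 probe 2 for C60 at 3 days.

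NiO and C60 lungs differed on 2 of 10 probes at 3 days (background 7.55 percent). Fkbp5 was higher in NiO lungs on probe 3 by 1.30 (SE 0.34, limma adjusted p = 0.0297) and Tsc22d3 on probe 1 by 0.78 (SE 0.23, limma adjusted p = 0.0491). At 1 month 1 of 8 differed (background 1.14 percent): Sgk1 was higher in NiO lungs by 0.46 (SE 0.10, limma adjusted p = 0.0349). Without C60 array 1 the 3-day differences were 0.71 and 0.26 (limma adjusted p = 0.423 and 0.615), the Fkbp5 call was also lost without NiO array 3 (0.0686) and the Tsc22d3 call without NiO array 2, 3 or 4 (0.091, 0.0959 and 0.0702). The Sgk1 difference missed the threshold, at 0.42 to 0.48, without any 1 of the 8 arrays other than NiO array 4. For the other probes the particles were not separated, which does not show that they acted alike.

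In control lungs 7 of 8 tested probes were called between the times, against 46.7 percent of all probes. Fkbp5 was lower at 1 month on all 3 probes, with log2 folds of -1.78, -2.74 and -2.52, that is 3.43-, 6.69- and 5.73-fold lower, with limma adjusted p-values of 0.00032, 2.39e-05 and 7.67e-06. On probe 2 the control arrays read -0.42, -1.0, -1.12 and -0.48 at 1 month and 1.99, 1.86 and 2.11 at 3 days. Tsc22d3 was lower too, at -1.05 and -1.99 (limma adjusted p = 0.000546 and 6.37e-06). Nr3c1 was higher, by 0.68 (limma adjusted p = 0.00472) and 0.41 (0.00106). The time series of NiO lungs gave 6 of 8 called probes in the same directions (background 42.2 percent), and C60 lungs 1 of 8 (background 25.5 percent), Nr3c1 on probe 2, higher by 0.33 (limma adjusted p = 0.0192, and 0.24 with 0.246 without C60 array 2 at 3 days). Scan day cannot be told apart from time here. The control arrays at 3 days are also those behind the 3-day particle folds, so the lower Fkbp5 and Tsc22d3 levels are not independent of those folds.

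The C60 effect differed between the times on all 3 Fkbp5 probes and 1 of 2 Tsc22d3 probes, but no call held without 1 of the arrays. For NiO 1 Fkbp5 probe was called. These differences rest on the same control arrays at 3 days as the 3-day folds. The C60 effect at 1 month minus that at 3 days was 1.59, 2.29 and 2.22 on Fkbp5 probes 1, 2 and 3 (limma adjusted p = 0.0471, 0.0161 and 0.00553) and 1.26 on Tsc22d3 probe 2 (0.0317), so that 4 of 8 tested probes were called against 10.5 percent of all probes. Without C60 array 1 at 3 days these were 0.95, 1.60, 1.63 and 0.66, and none passed (limma adjusted p = 0.282, 0.127, 0.0594 and 0.236). With all 4 C60 arrays at 3 days they were 1.46, 2.30, 2.16 and 1.14, and each passed (limma adjusted p = 0.0214, 0.00306, 0.00103 and 0.0149). The calls on Fkbp5 probe 1 and on Tsc22d3 were also lost without any 1 of the 3-day controls, and without control 2, C60 array 1 or C60 array 4 at 1 month. Fkbp5 probe 1 lost it as well without control 3, control 4 or C60 array 2 at 1 month. Tsc22d3 probe 1 gave 0.72 for C60 and was not called (limma adjusted p = 0.135). For NiO 1 of 8 was called, which is below the 37.1 percent of all probes. It was Fkbp5 probe 2 at 1.72 (SE 0.51, limma adjusted p = 0.0162), which was 1.17 (0.104) without NiO arrays 2 and 3 at 3 days. Fkbp5 probes 1 and 3 gave 0.69 and 1.00 (limma adjusted p = 0.218 and 0.0653). Tsc22d3 probes 1 and 2 went opposite ways, at -0.39 and 0.57 (limma adjusted p = 0.266 and 0.166). Within NiO lungs Fkbp5 probe 2 was lower at 1 month (log2 fold -1.02, limma adjusted p = 0.0241), a call lost without NiO array 1 or 4 at 3 days, or NiO array 3 or 4 at 1 month (0.0809, 0.0521, 0.0727 and 0.0691).

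A list of 40 known receptor targets, which holds 4 of the members, was read over 1 probe a gene, and 37 were measured. In NiO lungs at 3 days 10 of 37 were lower and 4 higher, against 9.01 and 7.71 percent of all named genes, and the list's median log2 fold was -0.29 against -0.03 for all named genes. Lower genes with separate arrays were the clock gene Per1 (-1.76, SE 0.46, limma adjusted p = 0.0154), the growth regulator Ddit4 (-1.75, adjusted p = 0.0046), the metabolic transcription factor Klf15 (-1.41), the phosphatase gene Dusp1 (-1.16), Cebpd (-1.0) and Nfkbia, the inhibitor of NF-κB (-0.94). Arrdc2, Errfi1, Rhob and Klf9 made up the rest, at -0.92 to -0.71. Per1 read 1.72, 0.20, -1.17 and 1.03 on NiO arrays against 2.48, 2.05 and 2.09 on control arrays. The higher ones were Lcn2, an acute-phase and iron-binding protein (3.26), Il1r2, a decoy receptor (1.00), and the thiamine transporter Slc19a2 (0.43), together with the member Sgk1. With NiO arrays 2 and 3 left out together 5 of 37 were called, without control 1 it was 9, and in a fit of these groups alone 4 of 36.

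In C60 lungs at 3 days 7 of 37 targets were lower and none higher, against 2.52 and 1.74 percent of all named genes, with a list median of -0.35 against -0.06. The log2 fold was -1.89 for Ddit4 (SE 0.44, limma adjusted p = 0.0182), -1.27 for the stress kinase gene Map3k6 (adjusted p = 0.0044), -1.26 for Cebpd and -1.25 for Klf15. Cebpd read 4.76 and 4.92 on C60 arrays against 6.37, 5.86 and 6.08 on control arrays. Without C60 array 1 limma called 0 of the 37, without control 1 or in a fit of these groups alone 4, and with all 4 C60 arrays 10, all lower. Of the 8 genes that supply receptor and hormone, 7 were measured. In NiO lungs 1 was called at 3 days (14.3 percent, against 16.7 percent of all named genes) and 2 at 1 month (28.6 against 32 percent), all lower, which is no more than the background. In C60 lungs none was called by limma at 1 month and 1 was lower at 3 days (14.3 against 4.25 percent), Hsd11b2, which inactivates corticosterone (-1.20, limma adjusted p = 0.0135).

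**Figure D3:**
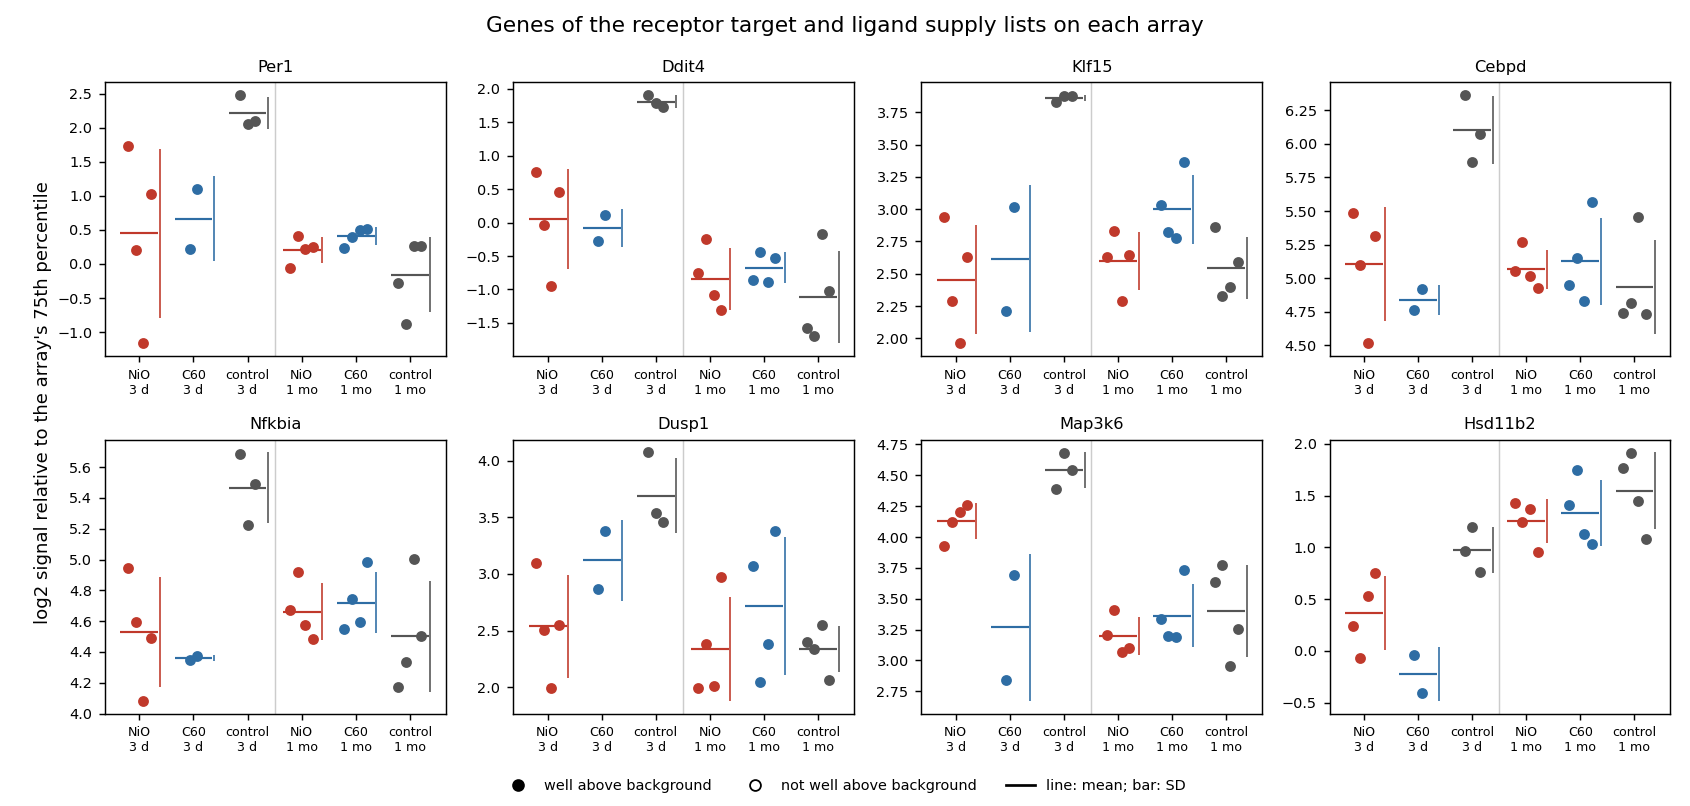
Log2 level (vertical axis) of 8 genes of the receptor target and ligand supply lists on each used array, by group as in the plot of member levels, with group mean and SD. For Per1, Ddit4, Klf15, Cebpd and Nfkbia every NiO and C60 array at 3 days lies below the 3 control arrays. All 8 genes were picked for a called fold and separate arrays in NiO or C60 lungs at 3 days, so such separation follows from the choice.

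At 1 month the targets were called less often than named genes at large, and the called ones went both ways. In NiO lungs 19.4 percent were called against 32 percent, and in C60 lungs 13.9 against 21.3 percent. In NiO lungs 4 of 36 tested were higher and 3 lower, against 15.9 and 16.1 percent of all named genes, and in C60 lungs 2 were higher and 3 lower, against 11.3 and 10 percent. Lcn2 was higher in NiO lungs (2.21, SE 0.35, limma adjusted p = 0.0005), with arrays at 4.00, 4.07, 5.60 and 3.83 against 1.77, 1.91, 2.30 and 2.67 in control lungs. Klf9 rose in C60 lungs (0.67, limma adjusted p = 0.019), and Rhob fell in them (-0.53, limma adjusted p = 0.049). Hif3a fell with both particles, with log2 folds of -1.65 in NiO and -1.55 in C60 lungs, and the control arrays there ranged widely, at -4.07, -3.37, -1.98 and -2.76. Pdk4 was called lower with both, but it was well above background on 1 of 4 control arrays and on no particle array, so it has no size. In C60 lungs 3 genes of the list were called without control 2, control 3 or C60 array 1 and in a fit of these groups alone, and in NiO lungs 4 without control arrays 3 and 4.

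**Figure D4:**
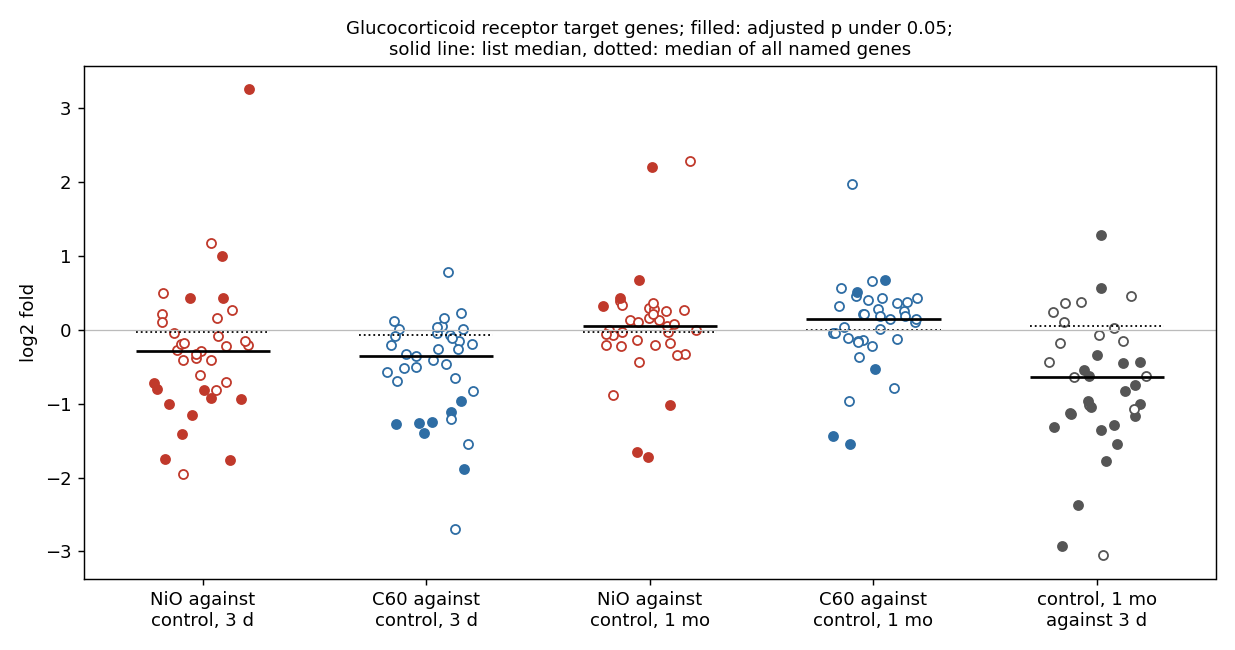
Log2 folds (vertical axis) of the measured receptor targets, 1 point a gene, in each comparison; filled points passed an adjusted p of 0.05 in the limma fit, and open points did not or, for Zbtb16 where a 1-month group is involved, were not tested. The list median (solid line) lies below that of all named genes (dotted) for both particles at 3 days (-0.29 and -0.35) and for control lungs at 1 month against 3 days (-0.63). All of these comparisons share the control arrays at 3 days, so they are not independent.

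Control lungs at 1 month had 20 of 36 targets lower and 2 higher than at 3 days, against 24.8 and 24.1 percent of all named genes, with a list median of -0.63 against 0.05. Among the genes already named, the log2 fold was -2.92 for Ddit4, -2.37 for Per1, -1.36 for Dusp1, -1.32 for Klf15, -1.17 for Cebpd, -1.14 for Map3k6 and -0.96 for Nfkbia. Hif3a, at 1.29, and Anxa1, which encodes the anti-inflammatory protein annexin A1, at 0.57, were the 2 higher ones. Cell markers differed in the same comparison, in which 48.9 percent of all named genes were called. Endothelial markers had list means of 1.75 to 2.00 at 1 month against 2.40 to 2.43 at 3 days, with 4 of 8 lower and 1 higher, and lung epithelial markers 5.46 to 5.52 against 5.70 to 5.81, also with 4 of 8 lower and 1 higher. Innate lymphocyte markers stood at -1.44 to -1.09 at 1 month against -1.97 to -1.53 at 3 days, with 6 of 12 higher and 1 lower. The part of these cells in the time difference was not tested. The time comparison of control lungs and both particle comparisons at 3 days use the same control arrays at 3 days. On those arrays the target list means were 1.39 to 1.45, above all other used arrays (0.52 to 1.38). The lower list medians in these comparisons are therefore not independent results.

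Of a list of 14 lung targets of glucocorticoids, not all of them epithelial, all were measured. In NiO lungs at 3 days 3 were higher and 1 lower (28.6 percent called, against 16.7 percent of all named genes). Among the higher ones were the sodium pump subunit gene Atp1b1 (0.77, limma adjusted p = 0.0107) and the phospholipase gene Pla2g4a (0.56). At 1 month 2 of 14 were called in NiO lungs (14.3 percent, below the 32 percent of all named genes), among them the sodium channel subunit gene Scnn1a, which was higher (0.67, limma adjusted p = 0.0238). Scnn1a, part of the channel that the Sgk1 kinase keeps at the surface, read 1.90, 2.11, 1.92 and 2.11 on NiO arrays and 1.26, 0.69, 1.58 and 1.83 on control arrays. In C60 lungs 2 of 14 were called at 1 month (14.3 percent, against 21.3 percent of all named genes), Scnn1a (0.90) and Aqp1 (0.49), both higher.

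Of 13 receptor chaperones measured, 6 were called in C60 lungs at 1 month, all higher (46.2 percent, against 21.3 percent of all named genes), and 3 at 3 days, all lower and Fkbp5 itself among them (23.1 against 4.25 percent). In NiO lungs 3 were called at 1 month, all higher (23.1 percent), and 1 at 3 days, lower (7.69 percent), which is below the 32 and 16.7 percent of all named genes. In C60 lungs at 1 month the higher ones were, among others, the phosphatase gene Ppp5c (0.79, limma adjusted p = 0.0099), the co-chaperone gene Stip1 (0.63), Fkbp4, the partner that favours hormone binding (0.56), and Cdc37 (0.51). Ppp5c was higher in NiO lungs too (0.74, limma adjusted p = 0.0085). Of 11 coregulators, Ncoa2, a coactivator of the receptor, fell in NiO lungs at 1 month (-0.60, limma adjusted p = 0.0216), where 2 were higher and 2 lower in all (36.4 percent called, near the 32 percent of all named genes). In the 13 relatives of the members measured, Tsc22d4 rose at 1 month in NiO (0.69, limma adjusted p = 0.0116) and C60 lungs (0.76, 0.0116), and Sgk3 in C60 lungs at 3 days (0.46, limma adjusted p = 0.0293). Pgr, the progesterone receptor gene, was at least 2.64-fold lower in NiO lungs at 1 month (limma adjusted p = 0.0041), being well above background on all 4 control arrays and no NiO array. It was lower in C60 lungs at 1 month too (-1.75, limma adjusted p = 0.0044), where 1 of 4 C60 arrays was well above background. Of the 1-month groups, only the controls had Pgr well above background on every array. Both Pgr tests are against these controls and so may lean on the probe filter.

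Across the 21 arrays the members differed in what they moved with, given here as a description, since the arrays share groups, slides and scan days. The Zbtb16 zinc finger probe had a Pearson r of 0.74 with the 5′ probe and of 0.67 with Fkbp5 probe 2, and with the group means taken out these were 0.75 and 0.93. Fkbp5 and Tsc22d3 probes correlated at 0.76 to 0.90, whereas Sgk1 stood at -0.05 to 0.32 with the probes of both. With the group means taken out these ranges were 0.45 to 0.68 and -0.13 to 0.55. Nr3c1 probe 1 ran against the Zbtb16 zinc finger probe (-0.54), and probe 2 less so (-0.15). With the group means taken out these were -0.59 and -0.48. Among 12781 probes well above background on every array, those most like the zinc finger probe were of Pdlim2 (0.92), Drap1, Hras, Mxd4 and Rgcc (0.84 each). Those most like the 5′ probe were of Nfkbia (0.79), Depp1 (0.78), Per1 and Cebpd (0.77 each) and Ddit4 (0.76), with the 5′ probe itself well above background on 9 of the 21 arrays and the zinc finger probe on 17.

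For the brightest probe of each other member the closest patterns were different. Fkbp5 was most like Pfkfb1 (0.94), Map3k6 (0.91), Slc2a5 and Gtf3a (0.89 each) and Tsc22d3 (0.88). Tsc22d3 was most like Mcl1 (0.93), Map3k6 (0.92), Zfp746 (0.91), Dcun1d3 (0.91) and Tmem230 (0.90). Sgk1 was most like Slc7a7 (0.93), Slc11a1 (0.91), Atp6v1b2 (0.88), Cndp2 (0.87) and Lgmn (0.86). Nr3c1 was most like Pja2 and Fundc1 (0.97 each), Mterf1 and Inpp1 (0.96 each) and Cul4b (0.96).

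**Figure D5:**
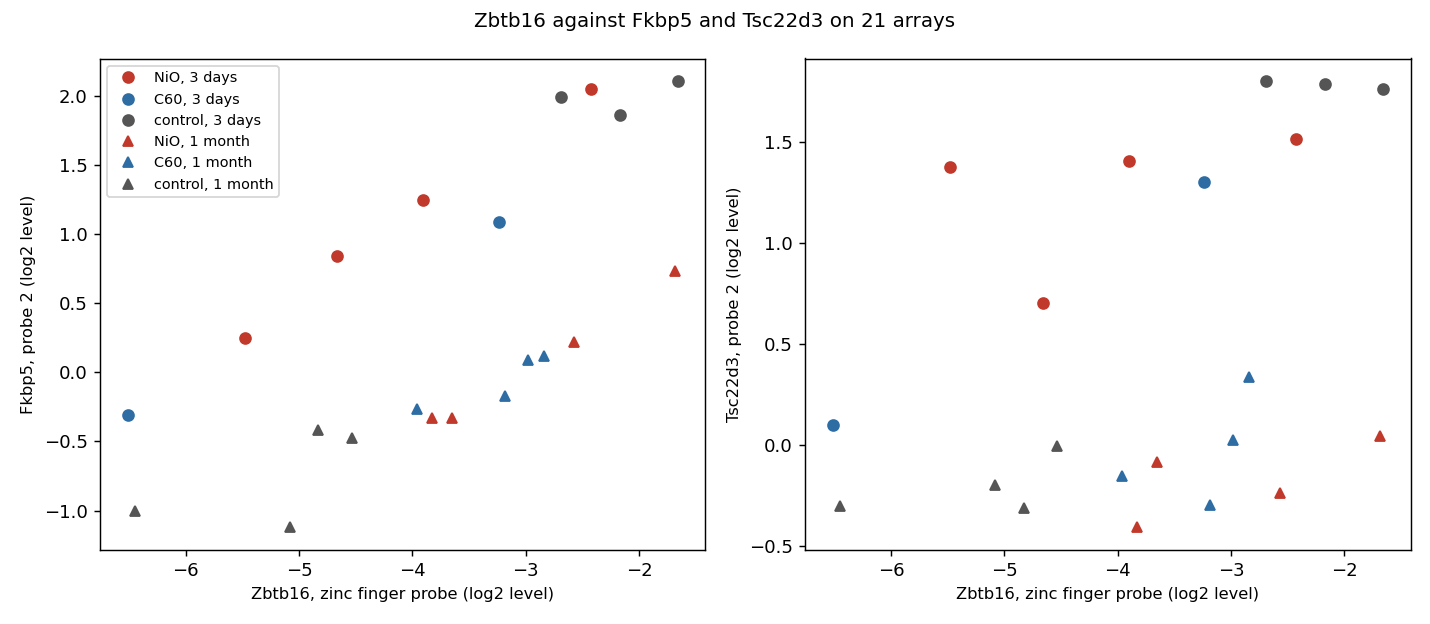
Log2 level of the Zbtb16 zinc finger probe (horizontal axis) against Fkbp5 probe 2 (left) and Tsc22d3 probe 2 (right), 1 point for each of 21 arrays, circles at 3 days and triangles at 1 month. Within each time arrays with more Zbtb16 tend to have more Fkbp5, and most 1-month arrays lie lower on both vertical axes. Of the 3 Fkbp5 probes, the one shown has the highest Pearson r with the Zbtb16 zinc finger probe.

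Markers of other cell types moved with some of these results, and in whole lung fewer cells of a type and less RNA per cell cannot be told apart. Of all named genes, 16.7 percent were called for NiO and 4.25 percent for C60 at 3 days, and 32 and 21.3 percent at 1 month. In C60 lungs at 3 days 4 of 6 measured fibroblast and smooth muscle markers were lower, with a mean log2 level over the list of 3.72 to 4.05 against 4.30 to 4.44 in control lungs. Heart muscle markers, 8 of 10 measured with 1 lower, stood at 0.10 to 1.10 in C60 against 1.36 to 2.09 in control lungs, and fat cell markers, 6 of 8 measured with none called, at -1.11 to -0.06 against -0.38 to 1.21. In NiO lungs at 3 days 4 of 8 endothelial markers were lower, with list means of 1.80 to 2.14 against 2.40 to 2.43. Macrophage markers, 6 of 8 measured, had 2 higher in NiO lungs at each time (33.3 percent), which at 1 month is near the share of all named genes. Their list means in NiO lungs, beside the rise of Sgk1, were 2.88 to 3.06 against 2.36 to 2.61 in control lungs at 3 days. At 1 month they were 2.76 to 3.38 against 2.35 to 2.55. Markers of innate lymphocytes, the cells in which Zbtb16 is best known, stood at -1.43 to -1.20 in NiO, -1.41 to -1.17 in C60 and -1.44 to -1.09 in control lungs at 1 month, with 0 of 12 measured called for NiO by limma, and 1 higher and 1 lower for C60. Neutrophil markers, 6 of 8 measured, had 1 lower in NiO lungs at 1 month and none called in the other 3 comparisons with control. For the labelled tissue, all 8 lung epithelial markers were measured. At 3 days their list means were 5.61 to 5.79 in NiO (1 higher and 2 lower), 5.41 to 5.58 in C60 (1 lower) and 5.70 to 5.81 in control lungs, so that the C60 arrays lay below the controls. At 1 month they were 5.56 to 5.66 in NiO (2 higher and 1 lower), 5.60 to 5.68 in C60 (2 higher) and 5.46 to 5.52 in control lungs, so that all particle arrays lay above the controls. The epithelial shares called at 1 month, 37.5 percent for NiO and 25 percent for C60, were near those of all named genes. The part of these cells in the member results was not tested.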

How the data were processed

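Total RNA of right lungs was hybridised to 1-colour (Cy3) rat arrays. The intensity values used are the processed signals that the authors' Feature Extraction software (9.5.3.1, protocol GE1-v5_95_Feb07, grid build rn4, per the file headers) wrote for each spot after background subtraction. The deposited table of the whole series holds 1 ratio per probe and group, used only to see which C60 arrays it was made from and as an alternative. In log2 it matched the mean signal of a group minus the median of the same-time controls, apart from a shift per column. The median absolute difference was 0.0003 to 0.0008 over 20357 probes. How its columns were centred is unknown.

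Of 23 arrays, 21 were used. Control and outlier spots were left out, spots of 1 probe were averaged, and log2 levels were taken relative to each array's 75th percentile. Probes well above background on every array of at least 1 group were kept, 28677 of 41012. Names came from RefSeq's rat gene table by accession (10768 probes), another accession (286), symbol (4998) or older symbol (3349), and 167 kept the file's name. One limma fit (3.58.1, R 4.3.3) over the 6 groups, with 15 residual degrees of freedom, gave folds, and p-values were Benjamini-Hochberg adjusted over all kept probes, with a threshold of 0.05. The fit was tested on simulated data.

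Every member probe was named. From the other lists (receptor targets, lung targets, receptor and ligand supply, chaperones, coregulators, relatives), genes past the threshold whose arrays did not overlap, up to 6 in each direction per comparison, were named, and for likeness the 5 genes with the highest Pearson r. Arrdc2, Errfi1, Rhob and Klf9 in NiO lungs at 3 days, Scnn1a and Aqp1 in C60 lungs, and genes of the control time comparison were added after their values were seen. The members and lists were chosen with earlier results of these data known. Alternatives were quantile normalization, normexp background correction (offset 50), other filters, all 4 C60 arrays, the compared groups alone, 1 probe per gene, array position as a block, and arrays left out. Alternatives for the differences between particles and between times were added after seeing the data.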

Additional observations from a re-analysis of the deposited data

Results flagged for a closer look

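Within groups of 4 lungs, a single array lay far from the other 3 in 3 of 40 tests, where chance gives about 1 in 20. These were Fkbp5 probe 3 on C60 array 4 at 1 month (-2.16, the others -2.61 to -2.55), Fkbp5 probe 1 on NiO array 2 at 3 days (2.36, the others 3.20 to 3.27) and Sgk1 on NiO array 4 at 1 month (2.25, the others 2.39 to 2.40).

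The C60 effect differed between 1 month and 3 days by 2.22 (limma adjusted p = 0.00553) on Fkbp5 probe 3, 2.29 (0.0161) on probe 2 and 1.59 (0.0471) on probe 1, and by 1.26 (0.0317) on Tsc22d3 probe 2. All 4 calls were lost without C60 array 1 at 3 days, at 1.63, 1.60, 0.95 and 0.66 in the same order. The NiO effect differed by 1.72 (limma adjusted p = 0.0162) on Fkbp5 probe 2, the only call among 8 tested probes, against 37.1 percent of all probes.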

How the results depend on the processing

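No paired analysis was possible because the labels number no replicates within a group. Over the member results against control and the changes of processing, 372 values were counted as unchanged, 13 lost a call, 11 gained one and 14 without a test moved. Unchanged means that a tested value kept its side of the threshold, or that one without a test stayed within the largest SD of the compared groups. No called fold changed sign, but sign changes of uncalled folds were not counted apart, and some occurred with the authors' table. Quantile normalization gave -0.25 for Nr3c1 probe 2 in NiO lungs at 3 days, 1.05 and 0.95 for Fkbp5 probe 3 in NiO and C60 lungs at 1 month, all now past the threshold, and -1.62 for Fkbp5 probe 2 in C60 lungs at 3 days, no longer past it. Normexp gave 0.80 and 0.72 for the Zbtb16 zinc finger probe in NiO and C60 lungs at 1 month. In C60 lungs at 3 days it gave -1.16 for Fkbp5 probe 1 and -0.87 for Tsc22d3 probe 2, both lost, and -0.86 for Tsc22d3 probe 1, gained. With no filter, Fkbp5 was lost at -1.60 and -1.40 on probes 2 and 1 there. All 4 C60 arrays gave calls at -0.79 for Tsc22d3 probe 1 and 0.73 for Fkbp5 probe 3 in NiO lungs at 1 month. Array position as a block gave -1.70 and -1.47 for Fkbp5, lost, and -0.88 for Tsc22d3 probe 1, gained.

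With only the compared groups in the fit, and so fewer arrays, 4 receptor targets were called for NiO at 3 days, 4 for C60 at 3 days and 3 for C60 at 1 month. Sgk1 in NiO lungs at 3 days (0.43), Fkbp5 (-1.57, -1.60 and -1.40) and Tsc22d3 (-1.08) in C60 lungs were then lost, and Fkbp5 probe 2 in C60 lungs at 1 month (0.69) gained. Without NiO arrays 2 and 3 at 3 days, 5 targets were called there, and Fkbp5 in NiO lungs at 1 month was called at 0.73 and 0.83. Without control arrays 3 and 4 at 1 month, 4 targets were called for NiO, Nr3c1 probe 1 was called for C60 (-0.61), and Fkbp5 probe 2 in C60 lungs at 3 days was lost (-1.60).

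Leaving out 1 array at a time, called targets ranged from 9 to 17 for NiO at 3 days, 0 to 6 for C60 at 3 days and 3 to 5 for C60 at 1 month. For NiO at 3 days folds ranged from -2.51 to -1.49 (Zbtb16 zinc finger probe), -2.21 to -1.28 (its 5′ probe, the low end from NiO arrays not well above background and so no size), -1.21 to -0.61 (Fkbp5 probe 2) and 0.34 to 0.53 (Sgk1). For C60 at 3 days they ranged from -4.34 to -1.06 (Zbtb16 zinc finger probe, the low end likewise from 1 array not well above background), -2.03 to -0.76, -2.30 to -0.90 and -2.17 to -0.98 (Fkbp5), and -1.33 to -0.31 and -1.68 to -0.48 (Tsc22d3). For NiO at 1 month they ranged from 0.53 to 0.87 (Fkbp5 probe 3) and -0.61 to -0.38 (Nr3c1 probe 1).

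Log2 ratios from the authors' deposited table, which differed from the fit by a median of -0.16 for NiO at 3 days, 0.35 for NiO at 1 month and 0.30 for C60 at 1 month, moved Tsc22d3 (-0.21) and Nr3c1 (-0.38) for NiO at 3 days. At 1 month they were -0.085 and 0.39 for Tsc22d3, 1.03 for Sgk1 and -0.15 and 0.26 for Nr3c1 with NiO, and 0.20 and 0.48, 0.52, and -0.056 and 0.31 with C60. The causes of these changes were not tested. Dim signal limits both Zbtb16 probes, and 2 lungs limit C60 at 3 days.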
